A study of Homo sapiens with 8 samples.

Results

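Messenger RNA of 8 genes of antigen presentation and the interferon response was followed in HepG2, an established human liver cancer line. The cells were with or without overexpression of EDN1, the gene for the precursor of endothelin-1. The genes were chosen by symbol, as HLA-B, HLA-C, B2M, TAP1, ISG15, IFI6, IFITM3 and IRF1, out of 24462 symbols in the deposited count table. All 8 were present and all 8 passed the filter on low counts, among 12577 genes tested in all. The comparison was between 4 libraries labelled mock and 4 labelled EDN1 O/E (EDN1 overexpression), both from cells grown in serum-containing DMEM with antibiotics and no further treatment. The sources used here do not say how EDN1 was introduced, whether a line was a single clone, or whether libraries of 1 group came from separate cultures, and the p-values therefore speak only for the spread among the libraries, which may be technical.

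Class I molecules of the major histocompatibility complex (MHC) carry peptides from inside the cell to its surface, where cytotoxic T cells and natural killer cells read them. A heavy chain, such as those encoded by HLA-B and HLA-C, pairs with beta-2 microglobulin, the product of B2M, and is loaded with peptides that the TAP1 and TAP2 transporter moves into the endoplasmic reticulum. Interferons raise many of these genes through a complex that holds STAT2 and IRF9 and binds the interferon-stimulated response element (ISRE), and through IRF1, and they also induce antiviral effectors such as ISG15, IFI6 and IFITM3. Hepatocytes carry class I molecules at a low level that interferon can raise.

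None of the 8 genes passed the test between EDN1 overexpression and mock. The smallest unadjusted p was 0.107, for IRF1, and each gene had an adjusted p of 0.9999 (edgeR quasi-likelihood test, Benjamini-Hochberg over all genes tested). Over all genes tested, 1 was called, 0.00795% of those tested, and that gene was EDN1 itself, with 9 to 29 counts per mock library and 2284 to 4764 per EDN1 library. Of the 8 genes, 0 had an unadjusted p under 0.05, against 2.85% of all genes tested, and 0 had groups that did not overlap, against 2.04%. The log2 fold change was negative in 6 of the 8 and positive in 2, with a median of -0.10. Over all genes tested 49.7% were negative and 50.3% positive, and the median was 0.00. The precision differed between the genes. For fold changes, 95% intervals stayed inside 2-fold, up or down, for HLA-B, HLA-C, B2M, TAP1, ISG15 and IRF1, as they did for 79.4% of all genes, but not for IFI6 or IFITM3.

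A second division ran across the groups. Clustering on 12454 genes that left out the 8 genes and all lists used here put mock 4, EDN1 3 and EDN1 4 together, called here the second library set. The remaining 5 libraries are called the first. No label names a batch. Total counts ran from 8409173 to 12466094 in the first set and from 9132441 to 14932385 in the second. Of all genes tested, 23.2% had values in the second set that did not overlap those of the first, with 13.4% lower and 9.83% higher. Of the 8 genes, IFITM3 and IFI6 were lower and ISG15 and TAP1 higher in each library of the second set than in every library of the first. The sets were formed from these libraries, so differences between them are given as descriptions, with no test. Since RNA was measured in bulk, fewer cells of a kind and less RNA per cell cannot be told apart.

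**Figure D1:**
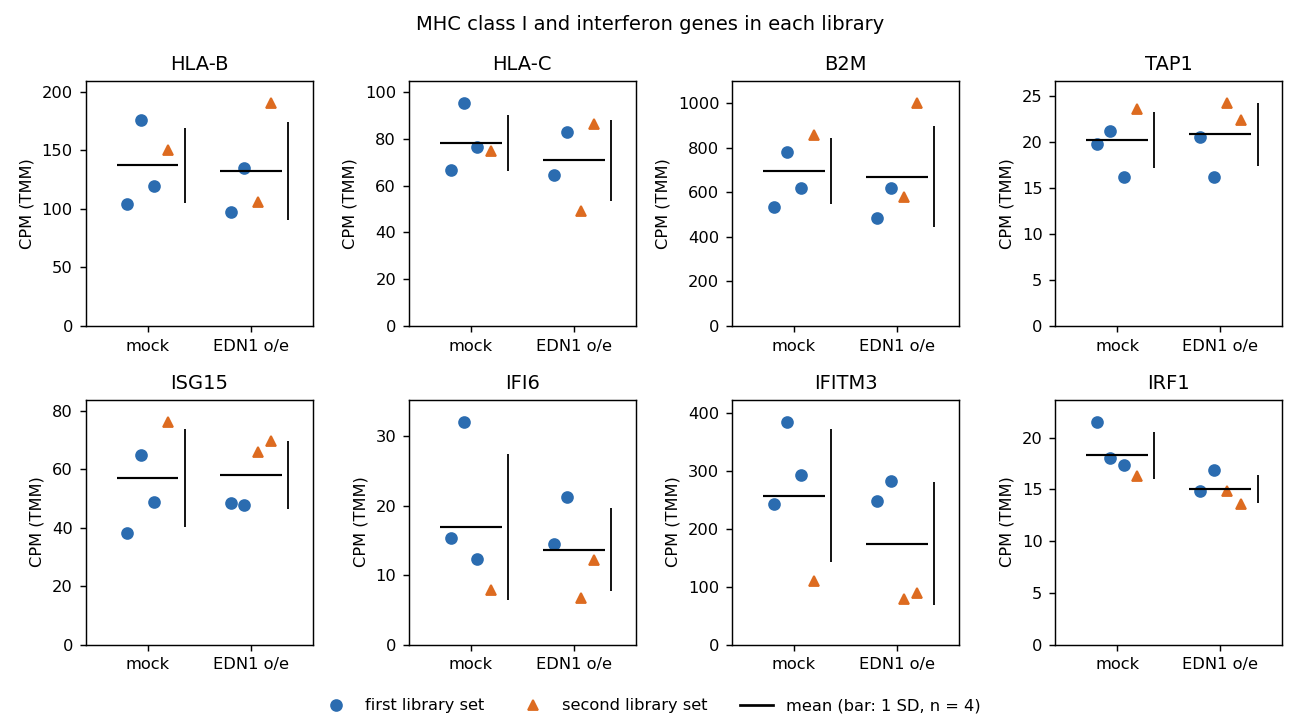
Level of each of the 8 genes in CPM (TMM-scaled, linear axis) in the 4 mock and 4 EDN1 overexpression libraries. Points are libraries, with circles for the first and triangles for the second library set, horizontal lines are means and vertical bars 1 SD. The groups overlap in every panel, while the IFITM3 triangles, at 79.2 to 110 CPM, all lie below the circles, at 242 to 385 CPM.

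The class I heavy chains come first. HLA-B and HLA-C are neighbours on chromosome 6 that encode classical, highly polymorphic heavy chains, and RefSeq (GRCh38.p14) gives the following 250 bases before their start sites, shown because the pair are near copies whose promoters share the enhancer where NF-kB proteins bind. Capitals mark matches to the NF-kB consensus on either strand.
HLA-B (chr6:31357180-31357429, minus strand): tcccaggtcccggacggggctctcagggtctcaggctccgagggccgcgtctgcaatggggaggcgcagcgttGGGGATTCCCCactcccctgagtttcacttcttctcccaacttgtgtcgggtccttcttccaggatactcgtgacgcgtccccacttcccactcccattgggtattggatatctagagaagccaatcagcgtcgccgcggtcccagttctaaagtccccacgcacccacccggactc
HLA-C (chr6:31272093-31272342, minus strand): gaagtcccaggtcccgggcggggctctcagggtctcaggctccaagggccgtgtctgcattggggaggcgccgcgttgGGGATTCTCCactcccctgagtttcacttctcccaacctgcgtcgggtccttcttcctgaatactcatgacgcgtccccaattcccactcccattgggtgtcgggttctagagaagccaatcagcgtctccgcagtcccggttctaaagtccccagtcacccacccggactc
An alignment of these windows held 226 identical bases of 246 aligned (91.9%). HLA-B had 2 overlapping matches, the first starting 177 bases before the start site, and HLA-C had 1, starting 172 bases before it. The NF-kB consensus matched 9.96% of 35116 RefSeq promoter windows of this length. It also matched windows of B2M, TAP1, IFITM3 and IRF1, so that 6 of the 8 genes had a match. The 8 were chosen as class I and interferon genes, so this share is a description only. The reference sequence may differ from the HLA alleles that HepG2 carries. The last 300 bases of the HLA-B and HLA-C transcripts in GENCODE were 92.3% identical over the aligned part, and the kit reads tags near the end of transcripts, so reads could have been split between them or lost, and single values are uncertain to that extent.

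HLA-B stood at 104, 176, 119 and 151 CPM (the count scaled to library size, here by TMM) in mock 1 to 4 and at 97.5, 135, 106 and 190 CPM in EDN1 1 to 4. The highest value was in an EDN1 library and so was the lowest, and the groups overlapped. The mean was 137 ± 32.01 CPM over the mock libraries and 132 ± 42.0 CPM over the EDN1 libraries (SD, n = 4 each), a log2 fold change of -0.06 (SE 0.24), with a 95% interval of 0.67-fold to 1.39-fold. HLA-C stood at 66.6, 95.2, 76.7 and 74.7 CPM in mock and at 64.7, 82.8, 49.2 and 86.5 CPM in EDN1 overexpression. EDN1 3 was the lowest of the 8 libraries and mock 2 the highest. The log2 fold change of HLA-C was -0.15 (SE 0.20), and it was -0.01 without EDN1 3. Neither gene followed the library sets without overlap, with log2 differences of second minus first set of 0.26 for HLA-B and -0.12 for HLA-C.

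Within a library, the ratio of HLA-B to HLA-C did not overlap between the sets. HLA-B had 1.51 to 1.84 counts per HLA-C count in the 5 libraries of the first set and 2.02 to 2.20 in the 3 of the second. Between the groups the ratio of HLA-B to HLA-C counts was 1.75 ± 0.226 in mock and 1.87 ± 0.354 in EDN1 overexpression (SD, n = 4), a difference smaller than the spread (exact two-sided permutation test, p = 0.571, adjusted over 4 ratios 0.762, where 0.0286 is the smallest p possible). Such a ratio needs no scaling, but it compares tags of near copies and not amounts of transcript per length. Within the first set the ratio averaged 1.65 in mock and 1.57 in EDN1 overexpression, and in the second 2.02 and 2.18.

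Of 12 listed heavy chain and class I-like genes, 9 were tested, 3 with a positive and 6 with a negative fold change, and 0 were called. HLA-E, a non-classical chain that presents leader peptides to natural killer cell receptors, showed a log2 fold change of 0.31 (SE 0.37), turning to -0.17 without EDN1 4 and -0.12 within the first set. MICB, a stress-induced ligand of the receptor NKG2D, had one of 0.53 (SE 0.34), moving to 0.32 without EDN1 1 and 0.96 without mock 2. The median log2 fold change of the 9 was -0.12.

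B2M on chromosome 15 encodes the light chain shared by all class I molecules. It is shown with its promoter because the ISRE, searched on both strands as GAAA, any 2 bases and GAAA again, occurs there as 2 overlapping matches, in capitals.
B2M (chr15:44711267-44711516, plus strand): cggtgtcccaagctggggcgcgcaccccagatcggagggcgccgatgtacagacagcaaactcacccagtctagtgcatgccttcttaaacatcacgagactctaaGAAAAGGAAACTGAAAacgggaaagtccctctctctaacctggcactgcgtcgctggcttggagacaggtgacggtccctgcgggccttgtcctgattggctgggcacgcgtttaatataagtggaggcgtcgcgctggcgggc
B2M stood at 532, 781, 617 and 855 CPM in mock libraries 1 to 4, against 486, 617, 578 and 999 CPM in EDN1 1 to 4. Mock 4 and EDN1 4, both of the second set, were the highest of their groups, while EDN1 3 of the same set lay within the range of the first, and the groups overlapped. Between the groups this gave a log2 fold change of -0.06 (SE 0.24), with a 95% interval of 0.66-fold to 1.40-fold. It ranged from -0.31 without EDN1 4 to 0.07 without EDN1 1.

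TAP1 encodes one chain of the peptide transporter and lies on chromosome 6, close to the immunoproteasome gene PSMB9. RefSeq lists 2 start sites for it, and the window of 1 of them held 2 overlapping ISRE matches, the first starting 134 bases before the start site. TAP1 stood at 19.8, 21.2, 16.2 and 23.6 CPM in mock and at 20.6, 16.2, 24.2 and 22.4 CPM in EDN1 overexpression. The 3 libraries of the second set were the highest, at 22.4 CPM or more, and the groups overlapped over nearly their whole range. The log2 fold change was 0.04 (SE 0.18), with a 95% interval of 0.78-fold to 1.36-fold, and within the sets it was -0.05 and -0.03, so its sign was not stable. Its counts ran from 140 to 341 per library.

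Of 16 genes of class I peptide processing and loading, B2M and TAP1 among them, all 16 were tested, 11 with positive and 5 with negative fold changes, and the median was 0.04 (log2) with 0 called. TAP2, the partner chain of TAP1, averaged 172 ± 11.9 CPM over the mock libraries and 159 ± 4.93 CPM over the EDN1 libraries (SD, n = 4), a log2 fold change of -0.12 (SE 0.12). TAPBP encodes tapasin, which bridges the transporter and the empty heavy chain, and showed a log2 fold change of 0.15 (SE 0.14). PSMB10, an immunoproteasome subunit gene, had one of 0.28 (SE 0.25), moving to 0.06 without EDN1 3 and 0.45 without EDN1 4. PSME2, a subunit of the proteasome activator PA28, had one of 0.15 (SE 0.19), moving to 0.05 without mock 4. TAP1 and PDIA3 were higher and PSME1 and TAPBPL lower in the second set without overlap, or 2 of 16 each way, against 9.83% and 13.4% of all genes tested. PDIA3, PSME1 and TAPBPL were named after their values were seen.

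**Figure D2:**
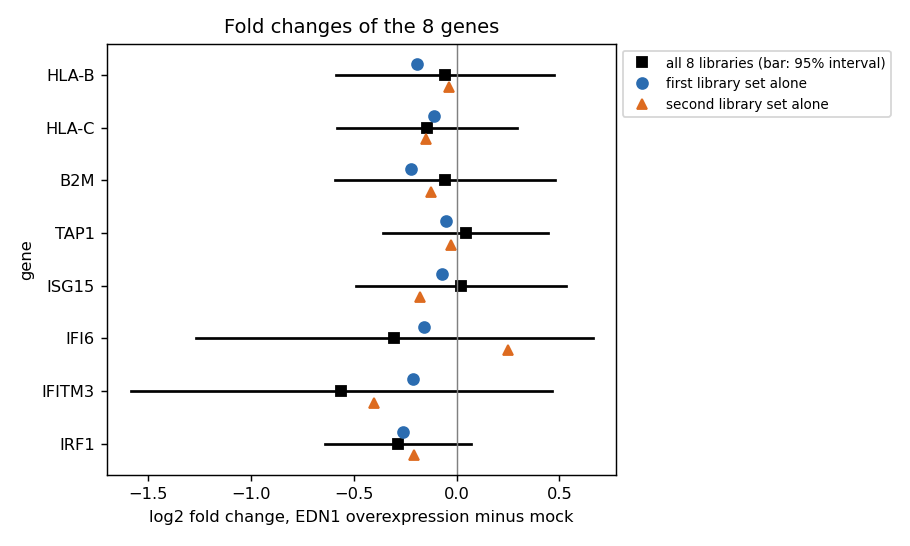
Log2 fold change of EDN1 overexpression minus mock for the 8 genes. Squares are the fit over all 8 libraries with its 95% interval, circles the first and triangles the second library set fitted alone, the latter with 1 mock library. All 8 intervals include 0, and those of IFI6 and IFITM3 are the widest, reaching -1.27 and -1.58.

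IRF1, on chromosome 5, encodes a transcription factor that interferon gamma induces and that drives class I genes. Its promoter window held 0 matches to the ISRE and 1 to the interferon gamma activation site (searched as TTCNNNGAA, which reads the same on both strands and occurs in 6.57% of promoter windows), beginning 124 bases before the start site. IRF1 stood at 21.5, 18.0, 17.4 and 16.3 CPM in mock libraries 1 to 4, against 14.9, 16.9, 14.8 and 13.6 CPM in EDN1 1 to 4. Only EDN1 2 lay within the mock range, and the other 3 EDN1 libraries lay below it. The mean was 18.3 ± 2.26 CPM over the mock libraries and 15.1 ± 1.36 CPM over the EDN1 libraries (SD, n = 4). The log2 fold change of -0.28 (SE 0.16) had a 95% interval of 0.64-fold to 1.05-fold and did not pass the test. It was negative under each alternative run, at -0.26 and -0.21 with the first and second sets fitted alone, and ran from -0.34 to -0.19 when 1 library was left out.

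Of 12 listed interferon regulatory factor genes and their binding partners, 6 were tested and 0 called. All 6 had negative log2 fold changes over all libraries, from -0.28 to -0.07, with a median of -0.16. With the first and second sets fitted alone the medians were -0.23 and -0.04, and the signs were not all negative. IRF9 was 0.07 with the first set alone and 0.59 with the second alone, and IRF2 was 0.02 with the second alone. IRF2 and IRF9 were named after their values were seen. IRF3, which is activated by viral nucleic acid sensing, showed a log2 fold change of -0.19 (SE 0.19), moving to -0.27 with the first set alone but 0.29 with the second alone. IRF2BPL, a gene of the IRF2-binding protein family, had one of -0.27 (SE 0.21), moving to -0.10 without mock 2. IRF2BP2, a corepressor gene of the same family, had one of -0.13 (SE 0.20), moving to nearly 0 without EDN1 1. IRF8 had 0 counts in all 8 libraries, and IRF4 and IRF7 had at most 2 and 6.

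The antiviral effectors had the 3 widest differences between the library sets among the 8 genes. ISG15 encodes a ubiquitin-like protein that is coupled to other proteins, IFI6 a membrane protein that limits virus replication in the endoplasmic reticulum, and IFITM3 a membrane protein that blocks virus entry. Their promoters are shown because the second set was higher for ISG15 and lower for the other two, and each window held the ISRE, in capitals. The ISRE letters were found in 3.02% of all RefSeq promoter windows of this length and in those of 5 of the 8 genes. The 8 were chosen as class I and interferon genes, so these shares are a description and no test of enrichment.
ISG15 (chr1:1013247-1013496, plus strand): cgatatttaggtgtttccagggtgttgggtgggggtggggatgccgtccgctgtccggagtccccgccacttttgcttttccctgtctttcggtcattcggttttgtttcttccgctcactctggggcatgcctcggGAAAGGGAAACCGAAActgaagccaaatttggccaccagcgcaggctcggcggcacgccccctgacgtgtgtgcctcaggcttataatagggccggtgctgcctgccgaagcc
IFI6 (chr1:27672193-27672442, minus strand): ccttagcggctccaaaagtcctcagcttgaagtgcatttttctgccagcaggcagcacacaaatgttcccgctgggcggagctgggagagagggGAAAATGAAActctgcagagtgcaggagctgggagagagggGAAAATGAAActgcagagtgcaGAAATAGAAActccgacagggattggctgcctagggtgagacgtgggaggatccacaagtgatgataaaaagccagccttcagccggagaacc
IFITM3 (chr11:320861-321110, minus strand): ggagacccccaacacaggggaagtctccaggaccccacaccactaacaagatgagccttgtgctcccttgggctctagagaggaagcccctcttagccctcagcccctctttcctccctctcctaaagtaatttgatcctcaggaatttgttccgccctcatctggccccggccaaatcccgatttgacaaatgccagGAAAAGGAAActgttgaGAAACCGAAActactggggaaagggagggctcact
ISG15 had 2 overlapping matches, the first starting 113 bases before the start site. IFI6 had 3 separate ones, starting 156, 115 and 93 bases before it, and IFITM3 had 2, starting 52 and 35 bases before it. A match describes these letters only and is not evidence of binding.

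ISG15 stood at 38.1, 65.0, 48.8 and 76.3 CPM in mock libraries 1 to 4, against 48.4, 47.6, 66.0 and 69.9 CPM in EDN1 1 to 4. The second set, at 66.0 to 76.3 CPM, lay above the first, at 38.1 to 65.0 CPM, though mock 2, at 65.0 CPM, came close to it. The difference of second minus first set was 0.56 on the log2 scale, with 0.62 in mock and 0.50 in EDN1 overexpression. Between the groups the log2 fold change was 0.02 (SE 0.23), with a 95% interval of 0.71-fold to 1.45-fold, but it was -0.07 and -0.18 within the first and second sets. Of 7 genes of ISG15 conjugation, 6 were tested, 4 with positive and 2 with negative fold changes and 0 called. TRIM25, which encodes a ligase for ISG15 and ubiquitin, showed a log2 fold change of 0.14 (SE 0.18), moving to 0.02 without EDN1 3, and the ligase gene ARIH1 had one of -0.18 (SE 0.15). UBE2L6, the E2 enzyme gene of the pathway, had one of 0.19 (SE 0.27), moving to 0.03 without mock 1 and 0.44 without mock 2. ISG15, TRIM25 and USP18, the last encoding the protease that removes ISG15, were higher in the second set without overlap, or 3 of the 6 tested, and 0 were lower, against 9.83% and 13.4% of all genes tested. USP18 was named after its values were seen.

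IFITM3 stood at 242, 385, 292 and 110 CPM in mock libraries 1 to 4, against 248, 282, 79.2 and 88.8 CPM in EDN1 1 to 4. The 3 low libraries were those of the second set. The mean level of the first set was 290 CPM, that of the second 92.7 CPM, and the difference of second minus first set was -1.55 on the log2 scale (2.93-fold lower), with -1.45 in mock and -1.65 in EDN1 overexpression. Only 0.954% of all genes tested had a lower difference between the sets. It ran from -1.65 to -1.46 when 1 library was left out. Between the groups the mean was 257 ± 114 CPM over the mock libraries and 174 ± 105 CPM over the EDN1 libraries (SD, n = 4), a log2 fold change of -0.56 (SE 0.46), with a 95% interval of 0.33-fold to 1.38-fold. The second set holds 1 mock and 2 EDN1 libraries, and with the set as a term the log2 fold change was -0.27 (SE 0.16). Fitted alone, the first set gave -0.21 (SE 0.22) and the second gave -0.40 (SE 0.38). Without EDN1 2 the value over the remaining libraries was -0.89, and without mock 2 it was -0.30.

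Of the near copies of IFITM3, IFITM2 was low in the same libraries and IFITM1 was not. IFITM2 and IFITM1 are in the list of interferon-stimulated genes but were named after their values were seen. IFITM2 stood at 142, 306, 170 and 48.6 CPM in mock and at 148, 179, 37.4 and 59.7 CPM in EDN1 overexpression, a difference between the sets of -1.89 on the log2 scale. IFITM1 stood between 1.75 and 9.76 CPM, with a difference of -0.01. The last 300 bases of the IFITM2 and IFITM3 transcripts were 92.2% identical over the aligned part, so reads of one could be counted for the other. Between the groups the log2 fold change was -0.65 (SE 0.56) for IFITM2, which was -0.18 without mock 2 and -1.02 without EDN1 2. For IFITM1 it was -0.41 (SE 0.49), moving to -0.84 without EDN1 4 and -0.03 without mock 2.

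IFI6 stood at 15.4, 32.1, 12.4 and 7.88 CPM in mock libraries 1 to 4, against 14.6, 21.2, 6.67 and 12.2 CPM in EDN1 1 to 4. The second set was lower than the first in each library, but EDN1 4 at 12.2 CPM lay just under mock 3 at 12.4 CPM, so the separation was narrow. The difference of second minus first set was -1.07 on the log2 scale. The log2 fold change between the groups was -0.30 (SE 0.44), with a 95% interval of 0.42-fold to 1.58-fold, and it was 0.20 without mock 2, the library with the highest value. Within the sets it was -0.16 and 0.25. Counts of 76 to 260 per library made IFI6 the least counted of the 8 genes together with IRF1, at 118 to 276.

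The ratio of ISG15 to IFITM3 counts set these opposite differences against each other. In mock 1 to 4 it was 0.157, 0.169, 0.167 and 0.693. In EDN1 1 to 4 it was 0.195, 0.169, 0.834 and 0.787. It lay between 0.157 and 0.195 in the first set and between 0.693 and 0.834 in the second, with no library between. The groups averaged 0.297 ± 0.264 in mock and 0.496 ± 0.363 in EDN1 overexpression (SD, n = 4), a difference within the spread (exact two-sided permutation test, p = 0.2, adjusted over 4 ratios 0.629). Within the first set it averaged 0.165 in mock and 0.182 in EDN1 overexpression, and in the second 0.693 and 0.810. The ratio of IFITM3 to IFI6 counts overlapped between the sets and ran from 12.0 to 23.5 in the first set and from 7.25 to 14.0 in the second (EDN1 overexpression against mock, exact two-sided permutation test, p = 0.314, adjusted 0.629).

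**Figure D3:**
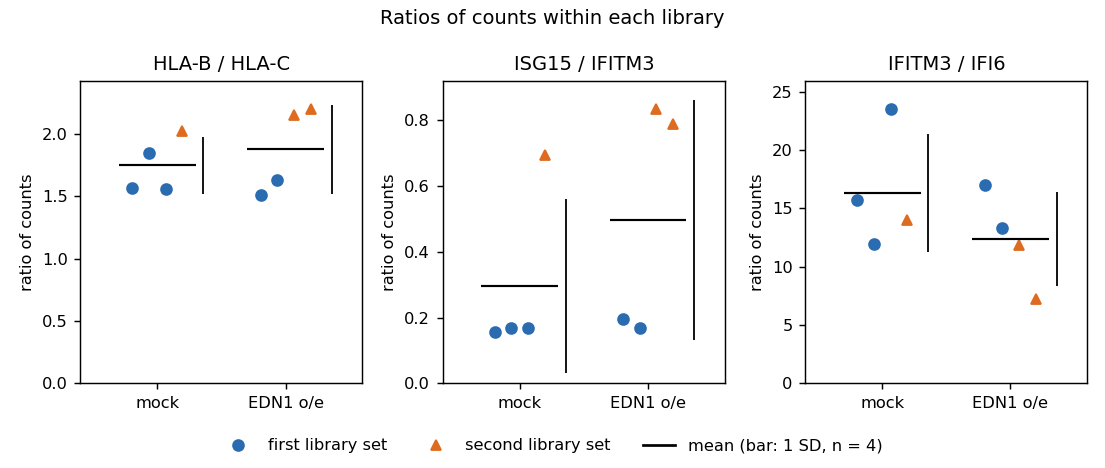
Ratios of counts within each library (linear axes, no unit) for HLA-B to HLA-C, ISG15 to IFITM3 and IFITM3 to IFI6, by group. Points are libraries, with circles for the first and triangles for the second library set, horizontal lines are means and vertical bars 1 SD. In the HLA-B to HLA-C and ISG15 to IFITM3 panels every triangle lies above every circle, while the groups overlap in all 3.

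Of 74 listed interferon-stimulated genes, 50 were tested, 29 with positive and 21 with negative fold changes, and the median was 0.05 (log2) with 0 called. PARP14, a mono-ADP-ribosyltransferase gene, was the 1 gene with an unadjusted p under 0.05 (2.85% of all genes). It stood at 16.6, 22.9, 17.5 and 24.7 CPM in mock and at 30.0, 24.4, 28.9 and 30.6 CPM in EDN1 overexpression, where 1 EDN1 library lay just under the highest mock library. Between the groups this gave a log2 fold change of 0.48 (SE 0.18; edgeR adjusted p = 0.9999). IFI27L1, a gene of the IFI6 family, was the 1 gene of the 50 whose groups did not overlap (2.04% of all genes tested), at 8.28 to 11.5 CPM in mock and 12.2 to 13.9 CPM in EDN1 overexpression, a log2 fold change of 0.35 (SE 0.17). BST2, which tethers budding viruses to the cell, showed a log2 fold change of 0.33 (SE 0.19), moving to 0.19 without EDN1 3, and ZNFX1, an RNA helicase and sensor gene, one of 0.30 (SE 0.15), moving to 0.18 without EDN1 3.

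Between the library sets, 11 of the 50 were higher and 8 lower in the second set without overlap, or 22% and 16%, against 9.83% and 13.4% of all genes tested. Among the 11 were ADAR, BST2, DTX3L, EIF2AK2, ISG15, PARP9, RNF213, TAP1, TRIM25 and USP18, and the 8 were DHX58, IFI6, IFITM2, IFITM3, IRF9, LGALS3BP, TRIM14 and WARS. IRF9, which encodes a part of the complex that binds the ISRE, had first and second set means of 6.62 and 2.99 CPM. PARP9, an ADP-ribosyltransferase family gene, had means of 10.6 and 18.7 CPM. All of these but the 8 genes, BST2 and TRIM25 were named after their values were seen. The median difference between the sets over the list was 0.06, against 0.01 for all genes.

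**Figure D4:**
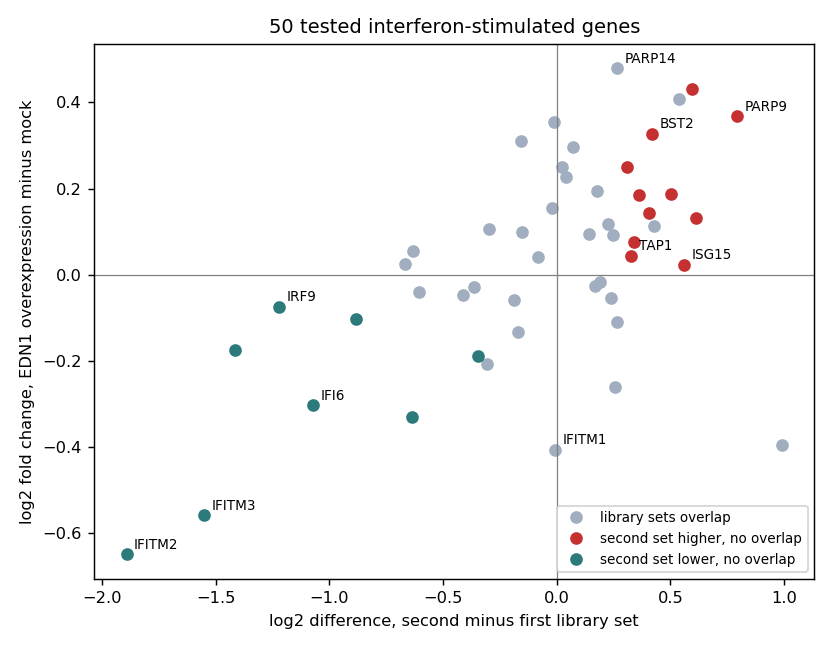
The 50 tested interferon-stimulated genes by their log2 difference of second minus first library set (horizontal axis) and log2 fold change of EDN1 overexpression minus mock (vertical axis). Colours mark genes whose sets did not overlap, 11 higher and 8 lower in the second set, and the axes share libraries, since 2 of the 3 second-set libraries are EDN1 libraries. IFITM2 and IFITM3 lie furthest to the left, and ISG15 and TAP1 lie to the right of 0.

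Upstream of these genes, interferon transcripts were at the limit of detection. Of 15 interferon genes, 14 had 0 counts in all 8 libraries and IFNL2 had 1 count in 1 library. A count of 0 allows up to 3 counts, or 0.201 to 0.357 CPM depending on the library, and covers counting error only. All 19 listed receptor and JAK-STAT genes were tested, 12 with positive and 7 with negative fold changes, and the median was 0.08 (log2) with 0 called. IFNGR2, a chain of the interferon gamma receptor, averaged 112 ± 46.0 CPM over the mock libraries and 141 ± 52.2 CPM over the EDN1 libraries (SD, n = 4), a log2 fold change of 0.33 (SE 0.31), moving to 0.66 without mock 4 and 0.12 without EDN1 4. STAT3, the transducer of interleukin-6 signals, had one of 0.20 (SE 0.23), moving to -0.02 within the first set. SOCS1, a feedback inhibitor of the pathway, had one of 0.23 (SE 0.16). Of 21 nucleic acid sensing genes, 15 were tested, 10 positive and 5 negative, with 0 called, and the adaptor genes MAVS and TRAF3 showed log2 fold changes of 0.22 (SE 0.16) and 0.12 (SE 0.15). TICAM1, the adaptor gene of TLR3, had one of -0.15 (SE 0.26), moving to 0.06 within the first set. Each of these lists was read from the same fit as the 8 genes.

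Some strongly inducible genes were near the limit of detection in both groups, while others were counted in every library. CXCL9, CXCL10 and IFI44 had 0 counts in all libraries, RSAD2 at most 1, OAS2 at most 3 and IFIT1 at most 17, in EDN1 3. MX2 had 96 to 207 counts per library, OAS3 72 to 187, DDX58 38 to 139 and MX1 9 to 35. Of the 74 interferon-stimulated genes, 50 were tested and 13 had at most 3 counts in any library. These genes were named after their counts were seen.

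**Figure D5:**
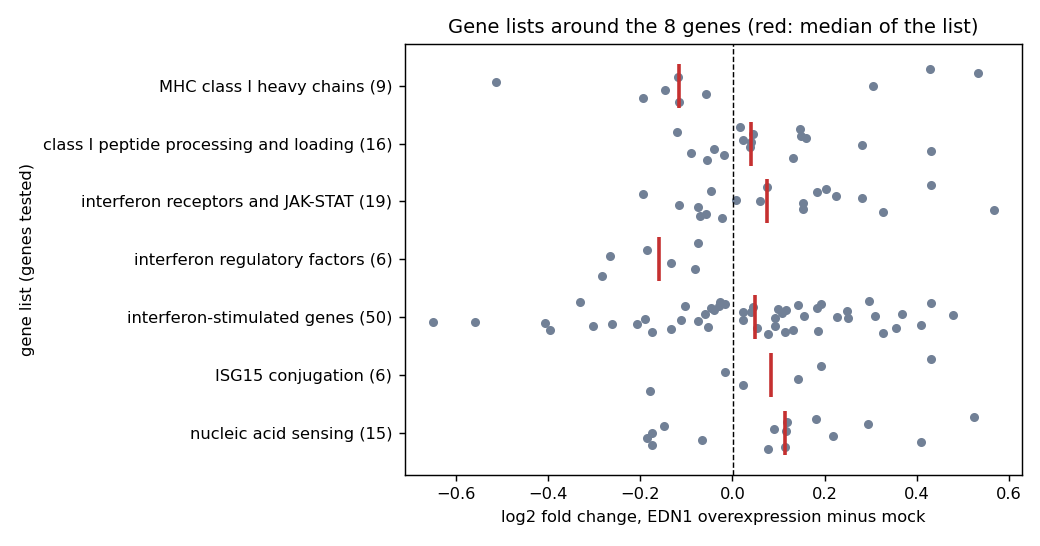
Log2 fold change of EDN1 overexpression minus mock for each tested gene of 7 lists (1 point per gene, vertical offset only for visibility), with the number tested in brackets. Red lines are list medians, from -0.16 for interferon regulatory factors to 0.11 for nucleic acid sensing, and the dashed line is the median of all genes tested, 0.00.

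The libraries were checked against markers of the cells they could hold. All 10 hepatocyte markers were tested, and their sum, most of it APOB, ran from 5775 to 8459 CPM in the first set and from 7066 to 8065 CPM in the second. APOA1, SERPINA1 and TF encode secreted liver proteins and were named after their values were seen. They were lower in the second set without overlap, or 3 of 10 (30%) against 13.4% of all genes tested. Without overlap, 0 of 10 were higher, but some were higher with overlap. The median difference of second minus first set over the 10 was 0.06 on the log2 scale. AFP, the gene of the fetal liver protein alpha-fetoprotein, stood at 726 to 1575 CPM in mock and 302 to 1004 CPM in EDN1 overexpression, so the groups overlapped. Its difference of second minus first set was 0.91 on the log2 scale, with the sets overlapping. Its log2 fold change was -0.79 (SE 0.35; unadjusted p = 0.047 and adjusted p = 0.9999, edgeR), with -1.05 and -1.02 for the sets fitted alone and -0.51 without mock 4. Of the blood and immune list, the defining genes PTPRC and CD3E had at most 1 and 0 counts, while LYZ stood at 351 to 793 CPM and made up most of the list's sum of 418 to 814 CPM in mock and 379 to 834 CPM in EDN1 overexpression. LAPTM5 of this list, named after its values were seen, had only 11 to 46 counts per library. It averaged 1.47 CPM over the mock libraries and 3.01 CPM over the EDN1 libraries, a log2 fold change of 1.04 (SE 0.29). Its groups did not overlap, as for 2.04% of all genes tested, and it did not pass the test (unadjusted p = 0.0048 and adjusted p = 0.9999, edgeR). Of 14 genes of the MHC class II pathway, which immune cells carry, 9 never exceeded 3 counts and 2 were tested. Of these, CD74, the invariant chain gene, showed a log2 fold change of -0.02 (SE 0.33), moving to 0.21 within the first set, with mean levels of 37.9 CPM (first library set) and 18.7 CPM (second). Endothelial markers summed to at most 1.15 CPM. The fibroblast and stellate list summed to 172 to 257 CPM in the first set and 35.7 to 43.8 CPM in the second, most of it from ACTA2. Of this list, LUM and THY1 had 0 counts, while PDGFRB had 13 to 70 counts per library and COL1A1 2 to 39. PDGFRB and COL1A1 were named after their counts were seen. The part of these markers in the library-set differences of IFITM3, IFI6, ISG15 and TAP1, and of AFP in the group comparison, was not tested.

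For each of the 8 genes, the gene with the most similar profile was taken as the one with the smallest root mean square distance of centred log2 CPM over the 8 libraries, out of 8696 other genes with at least 10 CPM. DYNLT1, a dynein light chain gene, was nearest to IFITM3 (distance 0.11) and stood at 107 to 134 CPM in the first set and 30.6 to 44.4 CPM in the second. RCN2 was nearest to ISG15 (0.05), PCMTD2 to B2M (0.05) and CCDC84 to HLA-B (0.07). COG5 was nearest to HLA-C (0.08), EDA2R to TAP1 (0.05), TSPAN14 to IRF1 (0.05) and LIX1L to IFI6 (0.17). None of these is in the lists used here, and with so many candidates a close match over 8 libraries is a description only.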

How the data were processed

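RNA was sequenced from 4 mock and 4 EDN1 overexpression libraries of HepG2 cells, for which the labels' protocols name a QuantSeq kit. The values are raw counts per gene row as the authors deposited them, beside a gene length that was not used. Per the submitters' processing notes, the tools were Bowtie2 and edgeR and the build hg19. Versions, the counter and its strand setting: not given in the sources used here. Reads of a gene and its antisense partner can therefore not be told apart. Several symbols fill more than 1 row, and the extra HLA-B, HLA-C and TAP1 rows held 0 counts.

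Rows of 1 symbol were summed (25737 rows, 24462 symbols). Genes were filtered with filterByExpr (minimum count 10), scaled by TMM and tested with edgeR 4.0.16 in R 4.3.3, with the group as the only term, adjustment over all 12577 genes and a threshold of 0.05. SE is the fold change over the square root of F. Total counts ran from 8409173 to 14932385. Every pair of libraries differed beyond sampling noise (chi-square per degree of freedom 6.39 to 93.3). The scripts were tested on simulated data with 4 libraries per group. The test called 1 of 49 genes simulated with a 1.5-fold change, 23 of 50 with a 2-fold change and 45 of 50 with a 4-fold change. A gene that was not called can therefore still differ by 2-fold.

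Library sets came from average linkage clustering of log2 CPM (prior count 2). The 8 genes and all lists were chosen with earlier results of these data known. Named genes were the 8, EDN1, up to 4 genes per list with at least 10 CPM and the smallest p, and the nearest profiles. Other genes are marked as named after their values were seen. IRF4, IRF7, IRF8, IFNL2, APOB, PTPRC, CD3E, LUM, THY1, TMSB4X and LGI1 were also named after their counts or values were seen. Alternatives were other scalings, filters, DESeq2 1.42.0, limma voom 3.58.1, the replicate block, the library sets and leaving out each library. Promoters are from RefSeq (GRCh38.p14) and all 8 symbols matched. Transcripts are from GENCODE, matched by symbol, since no coordinates of the deposited table were used. Some genes the naming rule picks, and 1 of the 4 count ratios tested, are not reported here.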

Additional observations from a re-analysis of the deposited data

Results flagged for a closer look

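The ratio of ISG15 to IFITM3 counts was 0.693 in mock 4, while the other 3 mock libraries lay between 0.157 and 0.169. Its gap to the nearest library was 0.978 of the range of the group, above the critical value of 0.829 for 4 samples. Among the 24 groups of 4 values looked at, this was the single one past that value. Chance flags about 1 in 20 groups, but these groups share libraries and genes, so that rate is only a rough guide. The ratio also repeats the opposite set differences of ISG15 and IFITM3 and is not a separate result. Mock 4 is the mock library of the second library set, and the EDN1 libraries of that set had ratios of 0.834 and 0.787.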

How the results depend on the processing

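Of 160 alternative log2 fold changes of the 8 genes, 139 kept their sign and 21 changed it, and in 0 of them did a gene pass the threshold (smallest adjusted p 0.892). The number of the 8 genes called stayed at 0, also at an adjusted p of 0.10. The number of all genes called was 3 with DESeq2 and 1 under each other alternative. The 3 were EDN1, TMSB4X and LGI1. Without 1 library the numbers called stayed at 1 over all genes and 0 of the 8. Some values changed sign. TAP1 was -0.038 with the library set as a term and -0.051 and -0.026 within the first and second sets, ISG15 was -0.11, -0.073 and -0.18, and IFI6 was 0.25 within the second. HLA-E was -0.12 within the first, STAT3 -0.022 within the first, IRF3 0.29 and UBE2L6 -0.016 within the second, and TICAM1 0.013 with the set as a term and 0.064 within the first. CD74 was 0.021 with total count scaling, 0.21 with the set as a term, and 0.21 and 0.20 within the sets. Without 1 library the ranges were -0.29 to 0.081 for HLA-B, -0.31 to 0.072 for B2M, -0.045 to 0.15 for TAP1, -0.13 to 0.20 for ISG15, -0.59 to 0.20 for IFI6, -0.17 to 0.52 for HLA-E, -0.24 to 0.15 for CD74, -0.0094 to 0.31 for STAT3 and -0.38 to 0.00997 for TICAM1. The second minus first set difference of HLA-C ran from -0.32 to 0.083. The log2 difference between groups of the HLA-B to HLA-C ratio was -0.072 within the first set. The cause of these changes was not tested. The median fold change of all genes moved by at most 0.04 (log2) with scaling. The set differences and ratios without 1 library were chosen after seeing the data. With the replicate number as a block, 1 gene was called over all and 0 of the 8. No label says that the numbers pair the libraries. Deviations of same-numbered libraries correlated at 0.48, 0.15, -0.15 and 0.53, and not every library correlated best with its own number. Those of mock 4 correlated at -0.63 and -0.65 with EDN1 1 and 2, and at 0.52 and 0.53 with EDN1 3 and 4 of its own set. The library sets thus enter these correlations, which cannot decide whether the numbers pair the libraries. Precision did not follow depth alone, since IFITM3, with 769 to 3113 counts per library, had an SE of 0.46, and IRF1, with 118 to 276 counts, one of 0.16.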
